A study of Sus scrofa with 19 samples.

Results

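Cytosolic ribosomal proteins are the protein part of the ribosomes that translate nuclear messages in the cytoplasm. The members of the family were taken from the array by name. They are the probe sets that the platform annotation links to a single symbol, that symbol being RPL (large subunit) or RPS (small subunit) followed by a digit, or *RPLP0*, *RPLP1*, *RPLP2* or *RPSA*, with the RPS6K kinases left out. The rule found 96 probe sets of 64 genes, against 6765 named genes and 23999 tested probe sets on the array, and each gene was read from its brightest probe set over all pigs. Of the 64 genes, 38 had RPL names and 26 had RPS names. Canonical ribosomal proteins made up 58 of them. The other 6 were the paralogs *RPL7L1*, *RPL22L1*, *RPL26L1*, *RPL36AL* and *RPS27L*, and *RPS19BP1*, which encodes a nucleolar protein that binds RPS19 and is not part of the ribosome. Ribosomal protein genes with no such probe set were not analysed here.

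The samples came from the longissimus dorsi muscle (LD, named longissimus thoracis et lumborum in the labels) of 19 Duroc pigs slaughtered at 190 days of age. The labels place 10 pigs in a high (LD HIGH) and 9 in a low (LD LOW) fattening group, the extremes of a ranking on carcass, plasma and muscle fat traits. All were castrated males of a single commercial line, fed the same kind of commercial diet, with no treatment. The line was made of half-sib families and the labels do not give the family of each pig. Total RNA of each animal was hybridised to 1 GeneChip Porcine Genome Array, and all values below are log2 GCRMA signals of probe sets.

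Ribosomal proteins are needed in near equal numbers, since each ribosome carries a single copy of nearly all of them. Their mRNAs are among the most abundant of any cell and start with a run of pyrimidines (a 5′ terminal oligopyrimidine, or TOP, start) through which the growth regulator mTORC1 controls their translation. In skeletal muscle, the making of new ribosomes is a known part of fibre growth and of the response to feeding. Signals on the array reflect the amount of mRNA in the whole tissue, so fewer cells of a type and less RNA per cell cannot be told apart. The array does not measure translation.

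Most ribosomal protein genes were among the brightest features of the array. A mean signal above 13 was found for 49 of the 64 genes, and only 217 of the 23999 probe sets (0.904%) were that bright. The first count takes the brightest probe set of each gene. Of all 96 member probe sets, 53 were above 13, and these are among the 217. Means below 12 were found for 11 genes. Signals of different probe sets depend on the probes as well as on the mRNA, so the order of the genes is not an order of mRNA amounts. *RPL31*, a large subunit protein at the exit of the peptide tunnel, ran from 14.48 to 15.44 over the 19 pigs. *RPLP0*, the base of the stalk that recruits elongation factors, ran from 14.39 to 14.75. In the small subunit, *RPS29* ran from 14.35 to 14.75 and *RPS24* from 13.66 to 14.74. The highest member value lay 0.67 below the highest value in the whole table (16.11), and whether the signal of the brightest probe sets flattens near that end was not tested.

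**Figure D1:**
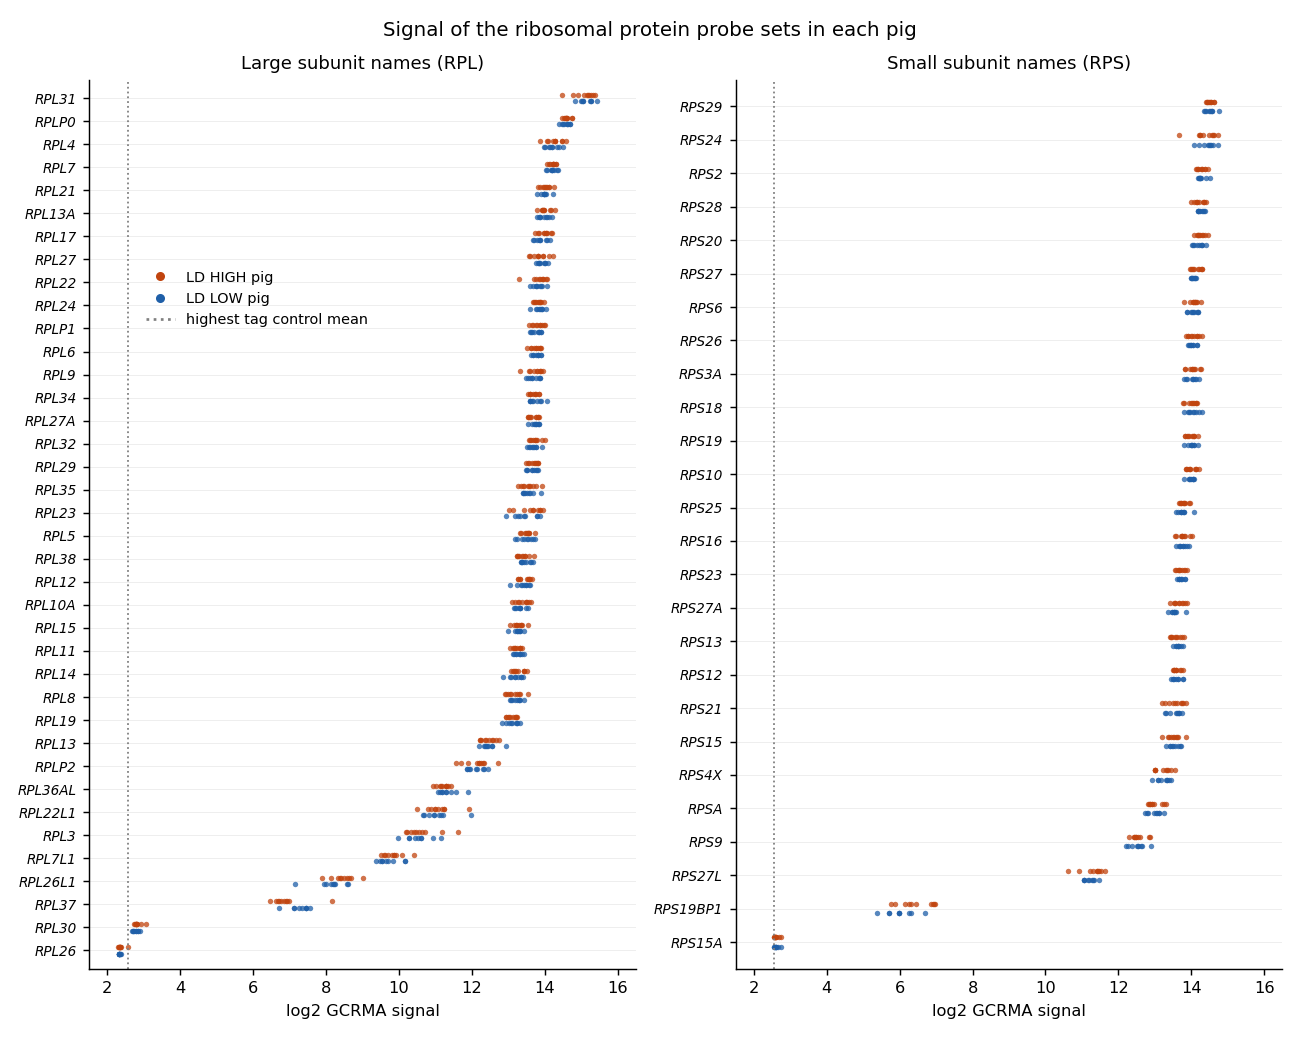
Log2 GCRMA signal (x axis) of the brightest probe set of each of the 64 genes (y axis, ordered by mean) in each pig, with LD HIGH pigs in orange, LD LOW pigs in blue and the highest tag control mean as a dotted line. Between them, the panels show 49 genes with means above 13 and 3 genes (RPL26, RPL30 and RPS15A) close to the tag controls.

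Some canonical genes stood at the other end. The brightest probe sets of *RPL26*, *RPL30* and *RPS15A* averaged 2.34, 2.80 and 2.61, next to the highest mean of the 17 tag control probe sets, which match no pig transcript (2.56). The *RPL26* probe set exceeded all tag controls on 1 of 19 arrays and was the single member that did not do so on every array. Whether these probe sets read the transcripts they are annotated to was not tested, and a change of these 3 genes could not be seen in them. *RPL37*, a small zinc-binding protein of the large subunit, averaged 7.08, and *RPL3*, a protein next to the peptidyl transferase centre, averaged 10.58. The paralogs ran from 8.29 for *RPL26L1* to 11.26 for *RPL36AL* and *RPS27L*, and *RPS19BP1* averaged 6.24.

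More than 1 probe set was annotated to 24 of the genes, which gave 32 further probe sets. Only 4 of these were bright (means above 12) and the other 28 had means between 1.77 and 8.51. In 8 cases the dim probe set carried the same number as the brightest one and differed in the letter A or S of its name, as for *RPL12* and *RPS6*. In those 8 pairs the brightest probe set averaged 13.43 to 14.06 and the other 2.95 to 7.48, and the files do not say what the letter stands for. The further probe set of *RPL31* followed its brightest one closely over the pigs (Pearson r = 0.992, n = 19, group means taken out), and so did the bright further probe set of *RPL27* (r = 0.868). The other bright probe sets of *RPS18*, a protein of the small subunit head, did not follow the brightest one closely (r = 0.248 and 0.0859). Over all 32 the median r was 0.146. Probe sets of these genes may also bind messages of near-identical copies elsewhere in the genome, and the share of such signal is unknown.

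The spread between pigs was small. The median SD over the 19 pigs was 0.14 log2 units for the 64 genes and 0.31 for all 17532 probe sets above the tag controls. At like brightness, the 49 genes with means above 13 had a median SD of 0.13, against 0.19 for the 164 other probe sets above 13. *RPS23* of the decoding centre (13.56 to 13.87), *RPL7* (14.02 to 14.35) and *RPLP0* had SDs of 0.09 and varied least among the bright members. The near-background *RPS15A* (0.06), *RPL26* (0.06) and *RPL30* (0.09) had small SDs as well. The largest SDs belonged to genes of middle brightness, namely *RPS19BP1* (0.47, values 5.37 to 6.96), *RPL37* (0.42, 6.46 to 8.16), *RPL3* (0.40, 9.97 to 11.62), *RPL26L1* (0.40, 7.15 to 9.01) and *RPL22L1* (0.37, 10.48 to 11.97).

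**Figure D2:**
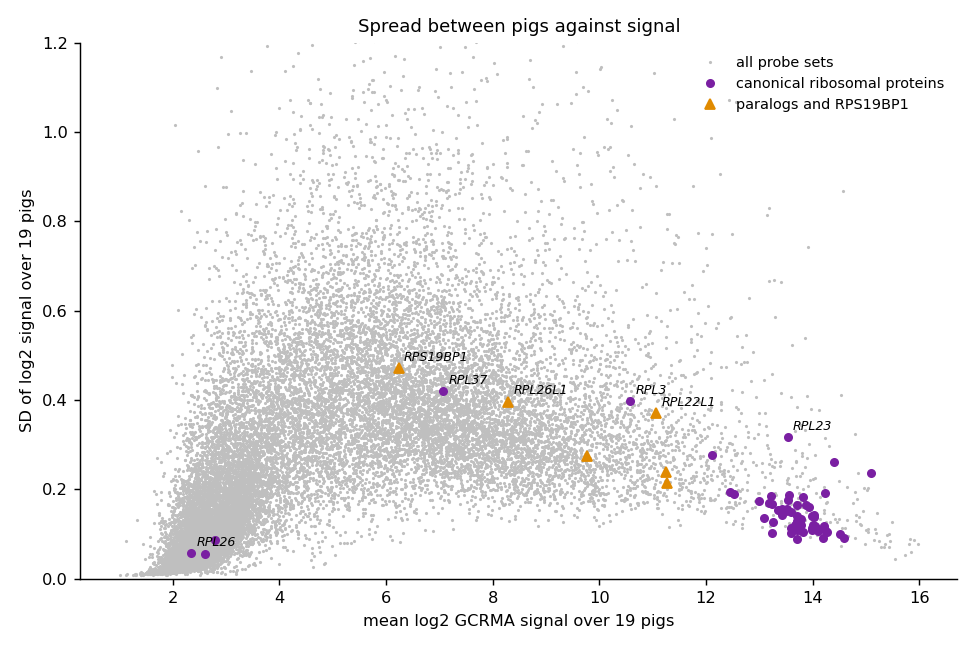
SD over 19 pigs (y axis, log2 units) against mean log2 GCRMA signal (x axis) of all probe sets (grey), canonical ribosomal protein genes (purple circles) and paralogs with RPS19BP1 (orange triangles); 98 grey probe sets with an SD over 1.2 lie outside the plot. The bright ribosomal protein genes form a group of low spread at the right, and RPL37, RPL3 and most of the paralogs lie to the left of it.

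The comparison of LD HIGH with LD LOW asked whether pigs selected for high or low fattening differ in ribosomal protein mRNA. None of the 64 genes was called by the limma-trend test at an adjusted *P*-value under 0.05 (Benjamini-Hochberg, over all probe sets). None of the 23999 probe sets was called either (0%), the smallest adjusted *P*-value being 0.993, and limma without the trend gave no member call. At an unadjusted *P*-value under 0.05, 1 member was higher in LD HIGH against 1.87% of all probe sets, and 1 was lower against 1.64% of all probe sets. Of the 32 further probe sets, 4 passed that cutoff, against 843 of all 23999, and none was called. These 4 were dim (means 3.97 to 6.51) and belonged to *RPL7*, *RPL9* and *RPL23*, higher in LD HIGH, and *RPLP0*, lower. Below, the difference of a gene is that of its brightest probe set unless stated. The median log2 difference (LD HIGH minus LD LOW) was 0.018 over the members (0.00075 without LD HIGH pig 1452) and -0.0063 over all probe sets. It was 0.023 for the RPL genes and 0.013 for the RPS genes. Positive differences were found for 40 of the 64 genes (62.5%), against 41.3% of all probe sets and 48.3% of those above the tag controls. Among members with means above 13 the count was 29 of 49 (59.2%), against 40.9% of the other probe sets above 13. Many of the members co-vary over pigs, as described below, so the 40 positive differences are not separate observations.

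The intervals show how large a difference these 19 arrays could have missed. The 95% interval of the difference stayed within a fold of 1.5 in either direction for 61 of the 64 genes (95.3%), compared with 75.6% of the probe sets above the tag controls. It stayed within 1.25-fold for 56 genes (87.5%), compared with 38.1%. Among the other probe sets with means above 13, 90.9% stayed within 1.5-fold and 69.5% within 1.25-fold. Among the genes with narrow intervals are the near-background *RPL26*, *RPL30* and *RPS15A*, whose signal could hardly move. The median standard error was 0.068 log2 units for the members and 0.139 for the probe sets above the tag controls. Only *RPS19BP1*, *RPL37* and *RPL26L1* had an interval that reached beyond 1.5-fold.

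**Figure D3:**
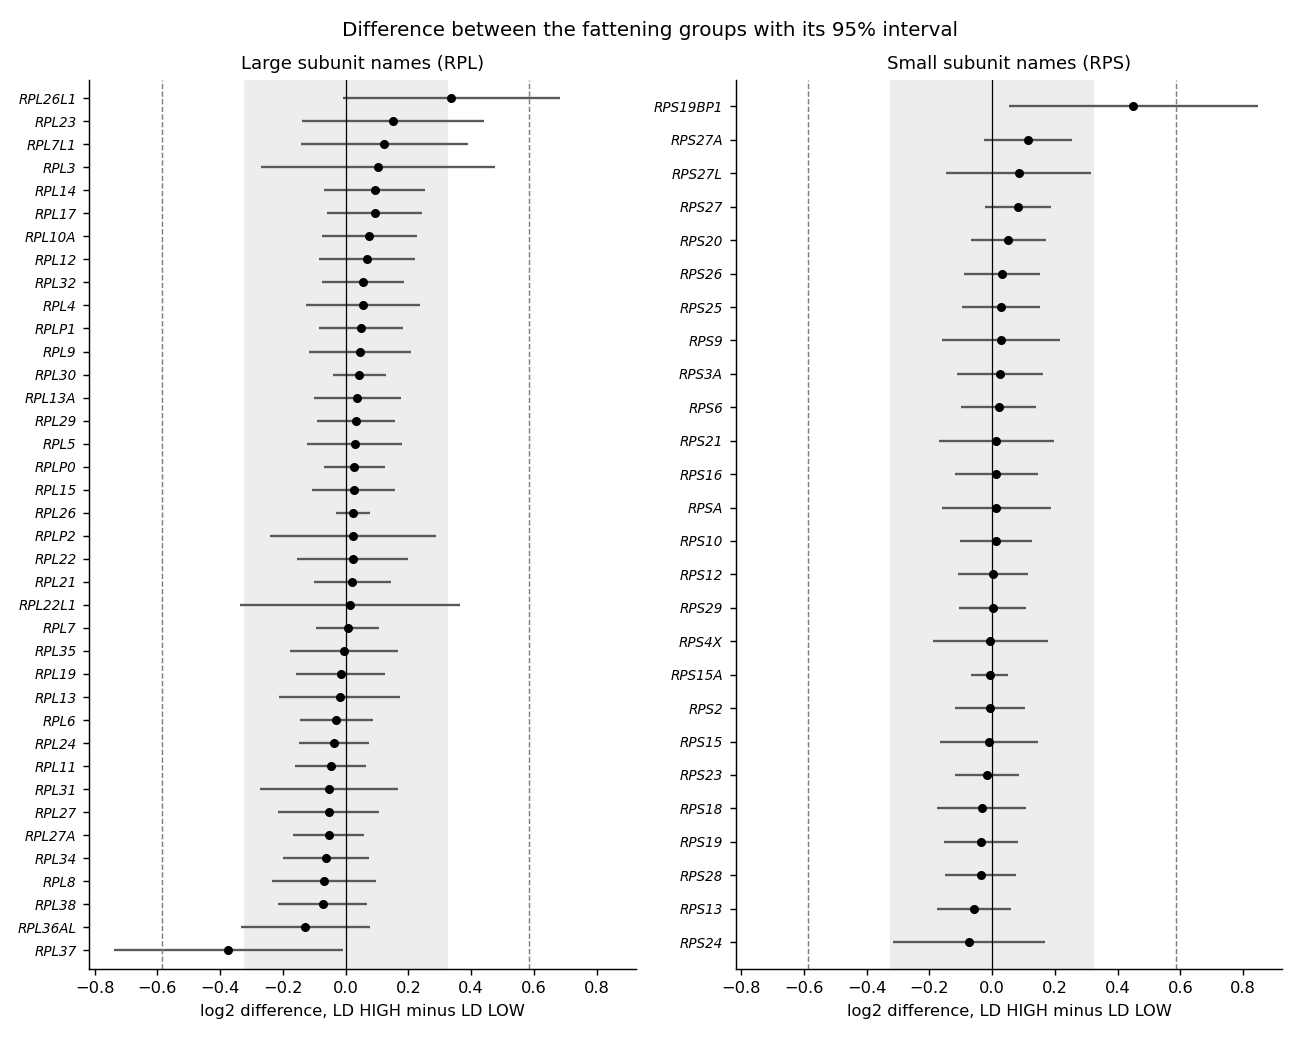
Log2 difference, LD HIGH minus LD LOW (x axis), with its 95% interval from limma for each of the 64 genes (y axis); the grey band spans a fold of 1.25 and the dashed lines a fold of 1.5 in either direction. Intervals of 56 genes lie inside the band, and those of RPS19BP1, RPL37 and RPL26L1 cross a dashed line.

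Among large subunit genes, *RPL37* had the smallest *P*-value. Its signal in LD HIGH had a lowest value of 6.46, a median of 6.79 and a highest value of 8.16, and in LD LOW the corresponding values were 6.71, 7.33 and 7.57. Of the LD HIGH pigs, 9 of 10 lay below the mean of LD LOW and 1 pig (1533) lay above every LD LOW pig, so the groups overlapped at both ends. The difference was -0.37 ± 0.17 (SE; 95% interval -0.74 to -0.01), with an unadjusted *P*-value of 0.0447 and an adjusted one of 0.993 in limma. Without pig 1533 the difference was -0.51 and the unadjusted *P*-value 0.000227, which gave an adjusted *P*-value of 0.890 in limma. Without LD HIGH pig 1468 the difference was -0.32 and the unadjusted *P*-value 0.0820. The other large subunit genes with the smallest *P*-values in the same direction were *RPL36AL* (-0.13), *RPL38* (-0.07), *RPL27A* (-0.05), *RPL34* (-0.06), *RPL11* (-0.05) and *RPL8* (-0.07), with unadjusted *P*-values from 0.206 to 0.389. Single pigs moved these small values: without LD LOW pig 1444 those of *RPL36AL*, *RPL38* and *RPL34* were -0.06, -0.05 and -0.02, and without LD HIGH pig 1612 those of *RPL11* and *RPL8* were -0.03 and -0.04. RPL11 is known for binding MDM2, and RPL8 lies near the catalytic centre.

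In the other direction, the large subunit genes with the smallest *P*-values were *RPL26L1* (0.34), *RPL17* (0.09), *RPL14* (0.09), *RPL23* (0.15) and *RPL30* (0.04). Further, dim probe sets gave other values. Those of *RPL23* (means 6.14 and 7.18) differed by 0.76 (unadjusted limma *P*-value 0.0354, adjusted 0.993) and -0.12. That of *RPL17* (mean 6.88) differed by -0.24. *RPL26L1*, a near copy of *RPL26*, had a lowest value of 7.89, a median of 8.45 and a highest value of 9.01 in LD HIGH. In LD LOW these were 7.15, 8.20 and 8.60. In LD HIGH, 9 of 10 pigs lay above the mean of LD LOW, and the groups overlapped over most of their range. The limma difference was 0.34 ± 0.17 (SE), with an unadjusted *P*-value of 0.0561 and an adjusted one of 0.993. Leaving out LD LOW pig 1918, the pig with the lowest value, brought it to 0.22. Without LD LOW pig 2187 the differences of *RPL14* and *RPL23* were 0.05 and 0.09, and without LD HIGH pig 8697 that of *RPL30* was 0.02.

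Of the genes with RPS names, those with the smallest *P*-values among positive differences were *RPS19BP1* (0.45), *RPS27A* (0.11) and *RPS27* (0.08). *RPS19BP1* ran from 5.76 over a median of 6.38 to 6.96 in LD HIGH and from 5.37 over 5.98 to 6.70 in LD LOW. In LD HIGH, 8 of 10 pigs lay above the LD LOW mean and 4 above the highest LD LOW pig. The difference was 0.45 ± 0.19 (SE; 95% interval 0.05 to 0.85), with an unadjusted *P*-value of 0.0284 and an adjusted one of 0.993 in limma. Without LD LOW pig 1918 it was 0.37, with an unadjusted limma *P*-value of 0.0632. *RPS27A*, which encodes ubiquitin fused to a small subunit protein, ran from 13.41 over 13.66 to 13.89 in LD HIGH and from 13.37 over 13.52 to 13.85 in LD LOW (unadjusted *P*-value 0.105). *RPS27* had 5 of 10 LD HIGH pigs above the highest LD LOW pig (14.12) and 1 below the lowest (13.98), with an unadjusted *P*-value of 0.122. The single small subunit gene named in the negative direction was *RPS13* (-0.06, unadjusted *P*-value 0.310).

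Differences of the stalk genes were small in their brightest probe sets. The difference was 0.03 for *RPLP0* (95% interval -0.07 to 0.13), 0.05 for *RPLP1* (-0.09 to 0.18) and 0.02 for *RPLP2* (-0.24 to 0.29). A dim further probe set of *RPLP0* (mean 4.20) differed by -0.19, with an unadjusted limma *P*-value of 0.0441 and an adjusted one of 0.993. That of *RPLP1* (mean 4.55) differed by 0.0061. *RPS6*, the small subunit protein that the S6 kinases phosphorylate downstream of mTORC1, differed by 0.02 (-0.10 to 0.14). *RPSA*, also known as the laminin receptor, differed by 0.01 (-0.16 to 0.19).

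Paralogs were compared with their canonical genes within each pig, since a ratio of 2 probe sets on the same array can be read as a difference between pigs though not as a ratio of mRNA amounts. Both genes of a pair were measured for 4 of the 10 pairs considered. The log2 ratio of *RPL22L1* to *RPL22* had a median of -2.82 in LD HIGH (range -3.07 to -2.02) and -2.82 in LD LOW (-3.10 to -2.09). The group means differed by -0.01 (exact two-sided permutation test over 92378 splits, *P* = 0.950, adjusted *P* = 0.980). The ratio of *RPS27L*, a gene known to be induced by p53, to *RPS27* differed by 0.0026 (exact permutation adjusted *P* = 0.980). That of *RPL7L1* to *RPL7* differed by 0.12 (exact permutation adjusted *P* = 0.856), and that of *RPL26L1* to *RPL26* by 0.31 (exact permutation *P* = 0.0896, adjusted *P* = 0.358). The last one carries the change of *RPL26L1* alone, because the *RPL26* probe set was near background, and it was 0.19 without LD LOW pig 1918. The difference for *RPL7L1* was 0.06 without LD HIGH pig 8697, and it turned to -0.07 when all probe sets of a gene were averaged. The 2 ratios with differences near 0 changed sign with single pigs left out. Over the pigs, *RPL22L1* and *RPL22* had r = 0.671 and the other 3 pairs had r between -0.261 and -0.171 (n = 19, group means taken out).

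Co-variation over the pigs was read after each group's mean was taken out. The 2016 pairs of members had a median r of 0.215, and 21.0% of them exceeded 0.5. Over all pairs of probe sets above the tag controls the median r was -0.00053, and 7.40% exceeded 0.5. Pairs among the 164 other probe sets above 13 had a median r of 0.0105. Values of like size were found in 2 other complexes, with a median r of 0.231 for 58 mitochondrial ribosomal protein genes and 0.309 for 33 proteasome subunit genes. All these values rest on the same 19 arrays, and shared array effects are part of them. Subtracting each array's median raised the members' median r to 0.352, that of the mitochondrial ribosomal protein genes to 0.304 and that of the proteasome genes to 0.343. That of all probe sets above the tag controls became 0.0143. Averaging all probe sets of a gene lowered the members' median r to 0.136. The median r was 0.218 in LD HIGH pigs alone and 0.295 in LD LOW pigs alone, and it was 0.237 among the RPL names, 0.193 among the RPS names and 0.204 between them.

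The genes did not move as one block. The first 3 principal components of the correlation matrix held 28.5%, 20.3% and 14.7% of the variance. When each gene was set against the median of the other members, 30 of the 64 had an r above 0.5, and the median was 0.456. *RPS19*, the small subunit gene best known from Diamond-Blackfan anaemia, followed the others most closely (r = 0.887), before *RPL27A* (0.862), *RPL11* (0.850), *RPL19* (0.819) and *RPL12* (0.816). *RPS19* itself covered a narrow range, from 13.82 to 14.19 in LD HIGH and from 13.81 to 14.19 in LD LOW. The 5 genes that followed least were *RPS15A* (-0.214), *RPL26* (-0.112), *RPL30* (-0.0856), *RPL7* (-0.0507) and *RPS27L* (-0.0374). The first 3 of these are the near-background probe sets, while *RPL7* and *RPS27L* were well above it. Within the groups *RPS27L* had r = -0.383 in LD HIGH (n = 10) and 0.808 in LD LOW (n = 9). *RPL7* had -0.0549 and -0.0488. LD HIGH pig 1533 had the lowest *RPS27L* value of its group (10.63) and the highest median deviation of the members (0.11). The r of *RPS27L* without that pig was not tested.

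Average linkage on 1 minus r, cut into 4 clusters, placed 43 genes in the largest and 16 in the next. The clusters come from these values and are given as a description only. The 16 genes were *RPL4*, *RPL5*, *RPL6*, *RPL22*, *RPL22L1*, *RPL23*, *RPL26L1*, *RPL34*, *RPLP1*, *RPS3A*, *RPS6*, *RPS12*, *RPS24*, *RPS25*, *RPS27A* and *RPS27L*. They had a median r of 0.559 among themselves and 0.0469 with the other members. Both subunits were present in them, with 9 RPL and 7 RPS genes. LD HIGH pig 1533 was the lowest of its group for *RPL4*, *RPL6*, *RPL22*, *RPL22L1*, *RPL23*, *RPL34*, *RPLP1*, *RPS6*, *RPS24*, *RPS27A* and *RPS27L*. Its family median was the highest of LD HIGH. Against the median of the other members, each of the 16 had a lower r in LD HIGH than in LD LOW. *RPS24* had -0.0506 and 0.869, and *RPS12* had 0.548 and 0.670. Whether the cluster holds without pig 1533 was not tested. *RPL23* and *RPL4* formed the closest pair of this cluster (r = 0.888), with *RPL23* at 12.93 to 13.94 and *RPL4* at 13.88 to 14.57 over the 19 pigs. *RPL22L1* and *RPS27A* (0.883), *RPL6* and *RPS24* (0.869) and *RPL22* and *RPS27L* (0.842) came next, with rank correlations of 0.793, 0.868 and 0.695. These pairs include pig 1533, the lowest of LD HIGH for each of their genes. Pig 1444 was the highest of LD LOW for both *RPL22L1* and *RPS27A*.

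The 43 genes of the larger cluster had a median r of 0.379 among themselves, with pairs down to -0.555. In the larger cluster the closest pair was *RPL8* and *RPS15* (0.923), followed by *RPLP2* and *RPS21* (0.881), *RPL8* and *RPSA* (0.880) and *RPL3* and *RPLP0* (0.868). The first of these held in both groups, with r = 0.919 in LD HIGH and 0.942 in LD LOW. Of the pairs of members, 1.14% had an r below -0.5. The most negative was *RPL22* and *RPL37* (-0.783), which has a rank correlation of -0.537 and includes pig 1533, the lowest of its group for *RPL22* and the highest for *RPL37*. *RPL23* ran against *RPS13* (-0.590), *RPL15* (-0.558) and *RPLP0* (-0.545), and all 4 genes have means above 13. The stalk proteins assemble as a complex of *RPLP0* with *RPLP1* and *RPLP2*, and their 3 pairs had r = -0.176 (*RPLP0* and *RPLP1*), -0.167 (*RPLP0* and *RPLP2*) and -0.457 (*RPLP1* and *RPLP2*). The last 2 differed in sign between the groups. *RPLP0* and *RPLP2* had r = 0.271 in LD HIGH and -0.831 in LD LOW, and *RPLP1* and *RPLP2* had -0.739 and 0.136.

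**Figure D4:**
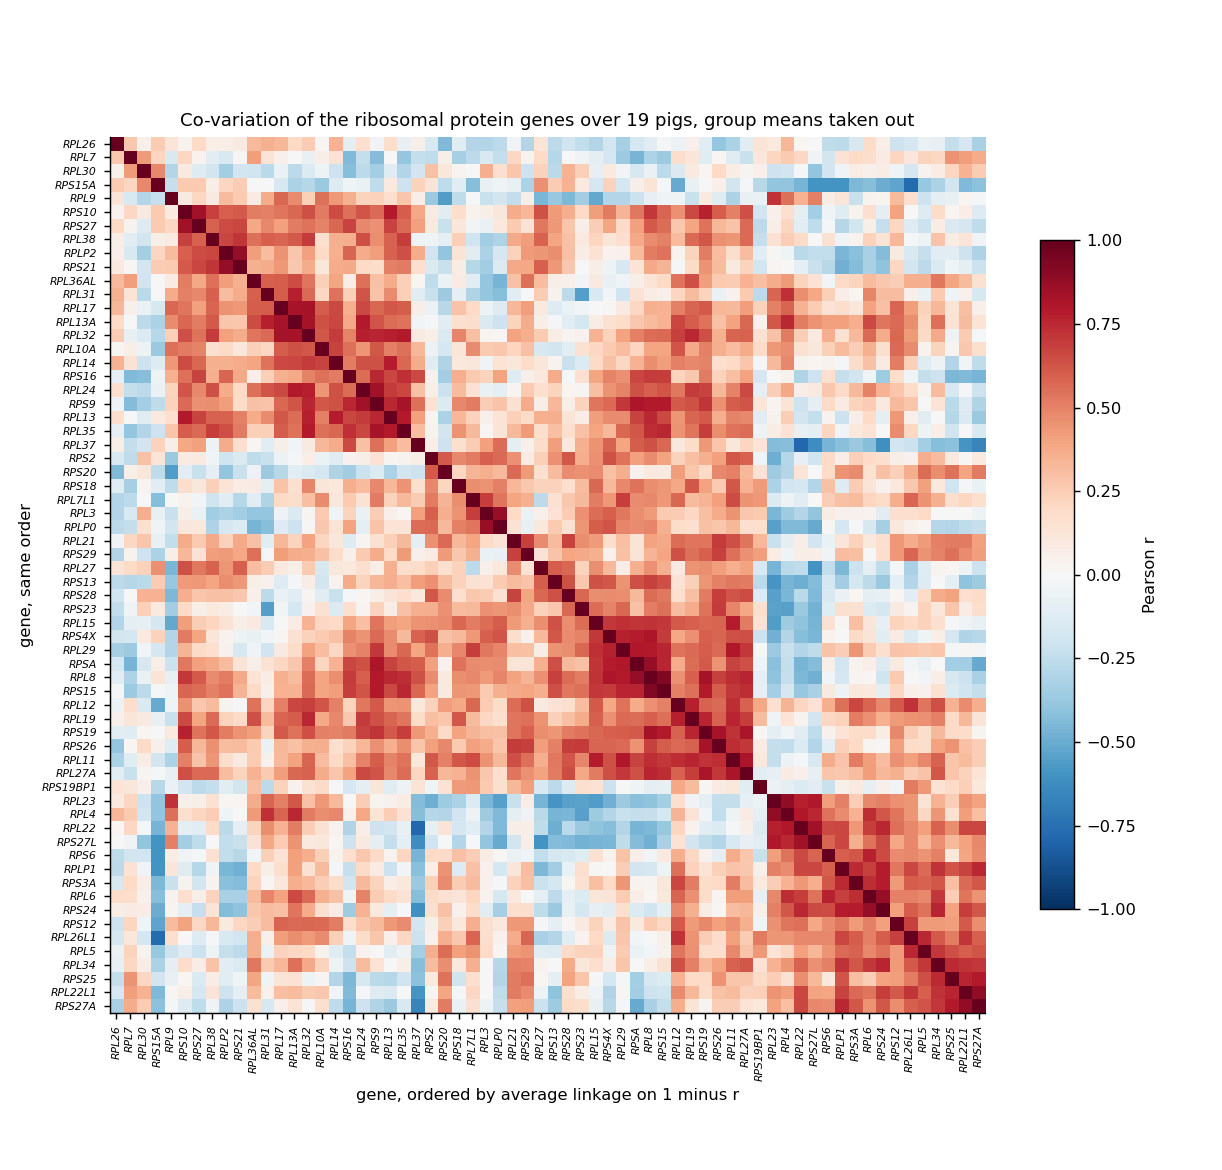
Pearson r over 19 pigs, with the group means taken out, between all pairs of the 64 genes (both axes, ordered by average linkage on 1 minus r; red positive, blue negative). A large area of 43 genes with red and some blue (median r 0.379, lowest -0.555) and a smaller red one of 16 genes at the lower right (median 0.559) are seen. Blue lies between RPL23, RPL4, RPL22 or RPS27L and genes such as RPS13, RPL15 and RPLP0.

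The median level of the whole family varied between pigs over a like range in both groups. The median deviation of the 64 genes from their means over all pigs had a lowest value of -0.09 (pig 1612), a median of 0.0027 and a highest value of 0.11 (pig 1533) in LD HIGH. In LD LOW these were -0.10 (pig 1918), -0.0039 and 0.13 (pig 2157). The groups overlapped over nearly their whole range. The SD of this median over pigs was 0.076 in each group. The same median over all probe sets, those near background included, had SDs of 0.027 in LD HIGH and 0.023 in LD LOW. The number of genes above their own mean ranged from 9 of 64 in LD LOW pig 1539 to 51 of 64 in LD HIGH pig 2144. The medians of the RPL and the RPS genes went together over the pigs (r = 0.811, n = 19, group means taken out).

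**Figure D5:**
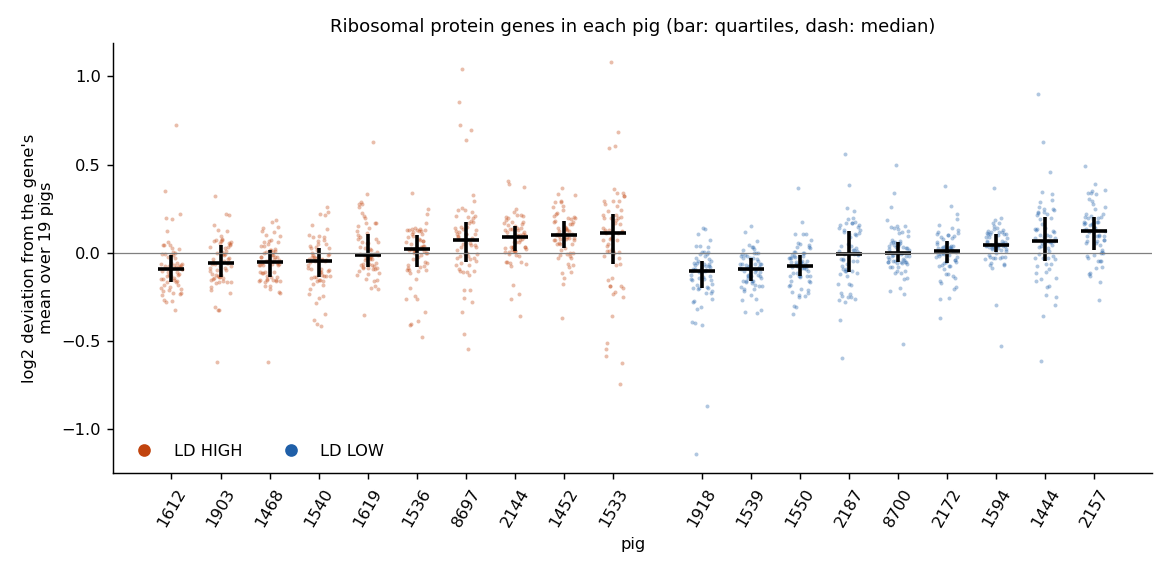
Deviation of the 64 genes from their mean over 19 pigs (y axis, log2 units; points are genes) in each pig (x axis, by group and ordered by median), with the quartiles as bars and the median as a dash. Medians run from -0.09 to 0.11 in LD HIGH and from -0.10 to 0.13 in LD LOW, and pig 1533 has the widest bar.

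Other measures of the arrays were set beside this family profile. The signal difference between the 3′ and 5′ ends of control transcripts (3′ minus 5′), a sign of RNA degradation, ran from 0.86 to 1.20 in LD HIGH and from 0.77 to 1.61 in LD LOW. Its r with the profile was -0.108 (rho = -0.235), and -0.232 without the 2 pigs farthest from the median. Of the ribosomal RNA control probe sets, one for 28S rRNA had r = -0.543 (rho = -0.519), and -0.495 without the 2 farthest pigs. The other 3 for 18S and 28S rRNA had r between -0.291 and -0.249 (rho from -0.409 to -0.0614). Without the 2 farthest pigs their r lay between -0.461 and -0.123. The 5S probe set had r = 0.0796, and -0.0803 without the 2 farthest pigs. The marker lists of muscle, fat, macrophages, lymphocytes, endothelium, blood and fibroblasts had r between -0.302 and 0.207 with the profile. All 8 measured skeletal muscle markers exceeded the tag controls on every array, with a mean signal of 15.02, and the mean signal of 8 adipocyte markers, 5 of them above the tag controls on every array, ran from 5.84 to 6.73 in LD HIGH and from 5.07 to 6.62 in LD LOW. The part of these measures in the family profile was not tested.

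Genes that make up or regulate the translation machinery were read from lists. *FAU* and *RACK1*, 2 further proteins of the small subunit whose names fall outside the rule, followed the family with r = 0.777 and 0.663, and differed by -0.08 and -0.03 between the groups. Of 17 other TOP mRNAs, 15 were measured, none with an unadjusted *P*-value under 0.05. Positive differences were found for 5 of them (4 to 9 with single pigs left out, the arrays rescaled or the 3′ minus 5′ signal adjusted for), and the median difference was -0.02 (-0.05 to 0.0024). Their median r with the family was 0.330 and 7 exceeded 0.5, while the 6701 named genes outside the family had a median of 0.0018 and 6.86% exceeded 0.5. *BTF3* (0.826) and *NACA* (0.569), the subunits of the nascent polypeptide-associated complex, and the elongation factor genes *EEF1D* (0.708) and *EEF1B2* (0.631) were among these 7. *TPT1* (0.152), *PABPC1* (-0.0102) and *HNRNPA1* (-0.394) were not, although their mRNAs have the same kind of start.

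Ribosome assembly factors, which build the subunits in the nucleolus, were measured for 27 of 30 genes. None was called. Differences were positive for 24 of the 27, with a median of 0.17. Of all probe sets 41.3% had positive differences, and of those above the tag controls 48.3%. One was higher at an unadjusted *P*-value under 0.05 (against 1.87% of all probe sets), the rRNA processing gene *PES1* (6.64 ± 0.36 in LD HIGH and 6.12 ± 0.44 in LD LOW, mean ± SD, n = 10 and 9; difference 0.52, unadjusted limma *P*-value 0.0104, adjusted 0.993). *GNL3* (0.41) and *LTV1* (0.44) had unadjusted *P*-values of 0.0615 and 0.0805. Leaving out single pigs, rescaling the arrays or adjusting for the 3′ minus 5′ signal kept the median difference of the list between 0.10 (without LD HIGH pig 8697) and 0.21, with 22 to 26 positive. Mitochondrial ribosomal protein genes had positive differences for 45 of 58, with a median of 0.10. Unadjusted *P*-values under 0.05 were found for 5 of them, all positive (*MRPL1*, *MRPL4*, *MRPL10*, *MRPL18* and *MRPL19*). Of all probe sets, 1.87% were higher and 1.64% lower at that cutoff. Over the same alternatives 41 to 48 of the 58 were positive, with medians from 0.07 to 0.14. Among the proteasome genes, 24 of 33 had positive differences, with a median of 0.08. Without LD HIGH pig 8697 that median was 0.03, and 20 to 26 of the genes were positive over the same alternatives. Against 1.87% of all probe sets, 1 proteasome gene was higher at an unadjusted limma *P*-value under 0.05. It was *PSMD10*, also known as gankyrin (difference 0.40, unadjusted limma *P*-value 0.00744, adjusted 0.993). These genes co-vary within their lists too, and no list was tested as a whole. Of 18 genes of mTORC1 and rDNA transcription control, only 9 were measured. *MTOR*, *RPTOR*, *EIF4EBP1*, *RPS6KB1* and *LARP1* were among those not measured, and *TSC1* and *TSC2* were dim (means 2.84 and 3.19). Of the 9, 5 had positive differences and none had an unadjusted *P*-value under 0.05. *EIF4E*, the cap-binding protein, differed by 0.56 with an unadjusted *P*-value of 0.0759 and ran against the family (r = -0.564), and *POLR1D*, a subunit of RNA polymerases I and III, ran with it (0.634).

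The 10 named genes outside the family whose signal was most like its median profile over the 19 pigs, with the group means taken out, were *GRB10* (r = 0.859), *BTF3*, *LRP10* (0.826), *LOC102164640* (0.821), *CAPN3* (0.808), *SEC24C* (0.798), *RNF181* (0.795), *KLF11* (0.790), *GNB2* (0.789) and *EFTUD2* (0.779). GRB10 is an adaptor of the insulin receptor and a substrate of mTORC1, and CAPN3 is the muscle calpain. They were picked as the highest of 6701 values. None had an unadjusted *P*-value under 0.05 between LD HIGH and LD LOW.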

How the data were processed

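Arrays of 19 LD samples were used (10 LD HIGH, 9 LD LOW, each pig a separate animal). Signals were deposited on the log2 scale, 1 value per probe set and array, after the authors had applied GCRMA per the submitters' processing notes, which state no version; the study's methods describe RMA, which does not correct background by probe sequence, so the meaning of values near background depends on which was applied. GCRMA corrects background by probe sequence, and both normalize between arrays, so a shift shared by most mRNAs would be removed. The other deposited table repeats the log2 values of 4268 probe sets, among them the brightest probe set of 1 member. Of 24114 probe sets, 115 controls were left out and 23999 tested without a filter. Array medians ran from 3.43 to 3.59, no 2 arrays were identical, and the number of arrays limits the precision.

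LD HIGH was tested against LD LOW in R 4.3.3 with limma 3.58.1 (lmFit, then eBayes with trend) and Benjamini-Hochberg adjustment over 23999 probe sets, a procedure first tested on simulated data. Paralog ratios were tested by exact permutation (scipy 1.17.1). Correlations and counts are descriptions. Members named were the 8 with the smallest *P*-values in each direction, the 5 with the largest and the 5 with the smallest SD among members above the tag controls on all arrays, the 5 following the other members most and least, paralog pairs, near-background genes and outliers, and the 10 most similar other genes; clusters, closest pairs, stalk genes and individual list genes were picked after their values were seen. The members and lists were chosen with earlier results of these data known. Alternatives were limma without the trend, a filter on level, other scalings, other probe sets, canonical proteins only, the 3′ minus 5′ covariate and the authors' shorter table and leaving out each pig; those for the lists of other genes were added after the data were seen. Promoter and protein sequences were not analysed here.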

Additional observations from a re-analysis of the deposited data

Results flagged for a closer look

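Values far from the rest of their group (Dixon's test at 95%) were found in 16 of 140 sets of values examined, each a gene, ratio or array measure in one group, where chance alone flags about 1 in 20. In LD HIGH pig 1533 the signal was low for *RPL22* (13.28 against 13.90 ± 0.11 in the other 9 pigs, mean ± SD) and *RPS24* (13.66 against 14.45 ± 0.19) and high for *RPL37* (8.16 against 6.76 ± 0.17). LD LOW pig 1444 was high for *RPL22L1* (11.97 against 10.95 ± 0.20), for *RPS25* (14.07 against 13.72 ± 0.08) and for *RPS27A* (13.85 against 13.50 ± 0.07). The same pig had the highest 3′ minus 5′ signal of control transcripts (1.61, with the other 8 pigs between 0.77 and 1.19), and the log2 ratio of *RPL22L1* to *RPL22* was -2.09 against -2.84 ± 0.16. LD HIGH pig 8697 was likewise high for *RPL22L1* (11.92 against 10.98 ± 0.24) and for that ratio (-2.02 against -2.84 ± 0.14).

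LD LOW pig 1918 was low for *RPL26L1* (7.15 against 8.24 ± 0.24) and for its ratio to *RPL26* (4.77 against 5.91 ± 0.24), and LD LOW pig 2157 was high for *RPL13* (12.94 against 12.40 ± 0.12). Pig 1918 was also the highest of its group for the near-background probe sets of *RPL26* (2.38) and *RPS15A* (2.75), and LD HIGH pig 1619 for *RPL26* (2.57).

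Control probe sets for ribosomal RNA, which no comparison between the groups used, carried signal. Both 18S probe sets (means 11.33 and 7.39) and both 28S probe sets (10.31 and 11.19) exceeded the tag controls on all 19 arrays. The 5S probe set (mean 2.92) did so on 12 arrays, with its highest value of 5.49 in LD HIGH pig 1619.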

How the results depend on the processing

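No member was called under any of 28 alternatives, including each pig left out; the authors' shorter table, one of the 28, held the brightest probe set of only 1 member. The count of members with an unadjusted *P*-value under 0.05 was 2 with the settings used and 4 with the 3′ minus 5′ covariate, 5 with the dimmest probe set of each gene, 1 among canonical proteins and 0 to 4 with single pigs left out. The share of all probe sets under each alternative is not given here, so these counts are not read as a result about the members. The median difference of the members stayed between 0.00075 and 0.031, and no paralog ratio passed the threshold. The ratio difference of *RPL22L1* to *RPL22* changed sign with quantile normalization (0.0083) and ran from -0.091 to 0.075 with single pigs left out. That of *RPS27L* to *RPS27* changed sign with quantile normalization (-0.0052) and averaged probe sets (-0.16) and ran from -0.041 to 0.095, and that of *RPL7L1* to *RPL7* changed sign with averaged probe sets (-0.067). The 16 genes named for their *P*-values kept their direction under the alternatives run on them. Those alternatives did not include other probe sets, and the further probe set of *RPL17* differed by -0.24. The median pairwise r was 0.199 to 0.257 with single pigs left out. It was 0.352 after each array's median was subtracted, 0.136 with all probe sets of a gene averaged, and 0.172 to 0.242 under the others. The cause was not tested. No paired analysis was possible because the groups share no pig numbers.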
